A study of Mus musculus with 3 samples.

Results

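DNA replication and mitosis genes are the 40 genes described here, taken by symbol from the 32285 genes of the deposited count tables, and all 40 were found. The S sum adds the UMIs (unique molecular identifiers, 1 for each captured transcript) of 15 replication genes: Mcm2 to Mcm7, Gins2, Pcna, Pclaf, Rrm1, Rrm2, Tyms, Tk1, Dut and Hist1h1b. The G2/M sum adds 23 mitosis genes: Mki67, Top2a, Birc5, Cdk1, Ccnb1, Ccnb2, Ccna2, Ube2c, Cdc20, Cenpa, Cenpe, Cenpf, Hmgb2, Nusap1, Cdca8, Cdca3, Tpx2, Aurka, Aurkb, Plk1, Bub1, Kif11 and Kif23. Stmn1 and Tubb5, whose proteins form or shape microtubules, are in neither sum. The 40 genes lie on 16 chromosomes (GENCODE for GRCm38, joined by Ensembl identifier). Tk1 and Birc5 are neighbours on chromosome 11, on opposite strands and 23158 bases apart.

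The samples were 3 single-cell libraries of mouse mesenteric lymph node, which drains the gut, with 1 library for each oral feeding of 4 weeks. The citrate library, titled as untreated, came from animals given citrate buffer (5 mM). The free OVA library came from feeding of plain ovalbumin, a model food protein (1 µg), and the LysoPS-OVA library from ovalbumin given with lyso-phosphatidylserine nanoparticles (1 µg). The 6 animals of a group were pooled, 10000 cells were loaded for each library after a dead cell removal step, and the labels give no strain, sex or age. With 1 library for each feeding there is no spread between animals, so no test was made. Intervals are 95% intervals for counting error only, and they are too narrow because UMIs of 1 cell are not independent. Sets of 3 values are in the order citrate, free OVA, LysoPS-OVA.

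A dividing cell copies its DNA in S phase, when the MCM helicase opens the helix, PCNA clamps the polymerase and enzymes such as ribonucleotide reductase supply nucleotides. It then condenses and parts its chromosomes in G2 and M, driven by cyclin B with CDK1 and by the Aurora and Polo kinases. In a lymph node most lymphocytes rest, and the germinal centre, where B cells divide between rounds of antibody mutation and selection, is known as a main site of division. Many mitosis genes share promoter elements: the cell cycle genes homology region (CHR), bound by the DREAM and B-MYB complexes, and CCAAT boxes, bound by NF-Y. Many replication genes carry E2F sites.

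Promoter letters are shown because the S and G2/M genes, which differed in the cell sums below, also differed in these elements. RefSeq windows (GRCm38.p6, 250 bases before to 50 after each start) matched 34 of the 40 genes, with 35 starts. The letters searched, on both strands, were TTTGAA for CHR, CCAAT, and TTGGCGC or TTCCCGC for E2F, and CCAAT and TTGGCGC matches can overlap. TTTGAA was in 15 of 20 G2/M genes (75.0%) and 2 of 13 S genes (15.4%), against 20.2% of all 27025 genes with a window. TTTGAA together with CCAAT was in 15 of 20 G2/M and 2 of 13 S genes, against 8.97%. CCAAT was in 18 of 20 G2/M and 10 of 13 S genes, against 41.1%. The E2F letters were in 3 of 20 G2/M and 6 of 13 S genes, against 7.79%. These are matches of letters, not measured binding. The 250 bases before the start follow for 3 G2/M genes with TTTGAA and 2 S genes with E2F letters, 5′ to 3′, with every whole match in capitals; the E2F letters of Pclaf run across its start and are not whole here.
Top2a, chr11:99024190-99024439, minus strand: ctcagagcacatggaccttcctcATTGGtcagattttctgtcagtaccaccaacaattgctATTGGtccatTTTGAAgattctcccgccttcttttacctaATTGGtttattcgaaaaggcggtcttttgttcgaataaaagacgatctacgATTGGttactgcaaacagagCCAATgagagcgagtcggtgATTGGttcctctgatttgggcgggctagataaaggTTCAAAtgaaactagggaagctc
Ccnb2, chr9:70421555-70421804, minus strand: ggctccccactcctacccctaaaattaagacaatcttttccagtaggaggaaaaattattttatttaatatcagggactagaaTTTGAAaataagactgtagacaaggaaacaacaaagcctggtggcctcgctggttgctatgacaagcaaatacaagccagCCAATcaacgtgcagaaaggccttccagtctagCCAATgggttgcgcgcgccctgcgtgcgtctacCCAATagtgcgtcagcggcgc
Cdc20, chr4:118437344-118437593, minus strand: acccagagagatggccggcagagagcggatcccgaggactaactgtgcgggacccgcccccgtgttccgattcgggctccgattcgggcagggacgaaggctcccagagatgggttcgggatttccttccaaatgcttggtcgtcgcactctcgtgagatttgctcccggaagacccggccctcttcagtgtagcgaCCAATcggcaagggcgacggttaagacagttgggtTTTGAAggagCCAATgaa
Mcm5, chr8:75109259-75109508, plus strand: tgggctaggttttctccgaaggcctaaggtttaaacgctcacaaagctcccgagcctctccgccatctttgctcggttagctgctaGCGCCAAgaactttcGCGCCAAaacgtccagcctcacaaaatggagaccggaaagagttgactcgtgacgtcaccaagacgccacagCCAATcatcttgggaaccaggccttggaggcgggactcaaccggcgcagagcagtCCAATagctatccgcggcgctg
Pclaf, chr9:65890073-65890322, plus strand: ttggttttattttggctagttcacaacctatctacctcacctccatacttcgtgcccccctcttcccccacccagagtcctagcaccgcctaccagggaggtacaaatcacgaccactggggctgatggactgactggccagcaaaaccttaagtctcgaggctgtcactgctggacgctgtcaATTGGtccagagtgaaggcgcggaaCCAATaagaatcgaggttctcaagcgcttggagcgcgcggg

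Cell types were gated on raw UMIs of marker genes that include none of the 40. The labels call the cells intestinal, but over all kept barcodes (droplets with RNA) 6 intestinal epithelial genes summed to only 5.11, 7.33 and 4.86 CPM (the UMIs of a gene scaled to a fixed total, counts per mega UMI), with 0, 1 and 1 of them at 0. The 6 B cell markers summed to 1918, 2268 and 2542 CPM and the 4 T cell markers to 1147, 709 and 1155 CPM, with none at 0. After filtering 21871, 21949 and 16025 barcodes were kept, more than the cells loaded, with a median of 2643, 1815 and 4134 UMIs. From 100 to 123 kept barcode sequences occurred in both libraries of a pair. Malat1, a nuclear RNA, was under 0.5% of UMIs in 27.8%, 51.6% and 21.6% of kept barcodes, and 17.0%, 5.92% and 7.49% of barcodes were called doublets and removed.

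The 40 genes were abundant in germinal centre B barcodes, B barcodes that carry at least 2 of 7 germinal centre markers. There the S sum stood at 2657, 2802 and 2577 CPM and the G2/M sum at 5439, 5319.6 and 4917 CPM. Plasma cell barcodes were near this level, above it in LysoPS-OVA, with S sums of 2411, 2727 and 2681 CPM and G2/M sums of 4177, 4358 and 5087 CPM, over only 34, 41 and 20 barcodes. Naive-marked CD8 T barcodes, a resting type, held S sums of 406, 271 and 269 CPM and G2/M sums of 476, 239.5 and 215 CPM. Each of the 40 genes was higher in germinal centre B than in other B barcodes of its own library, with every interval of the ratio above 1. The median ratio over the genes was 8.02, 22.6 and 27.7.

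**Figure D1:**
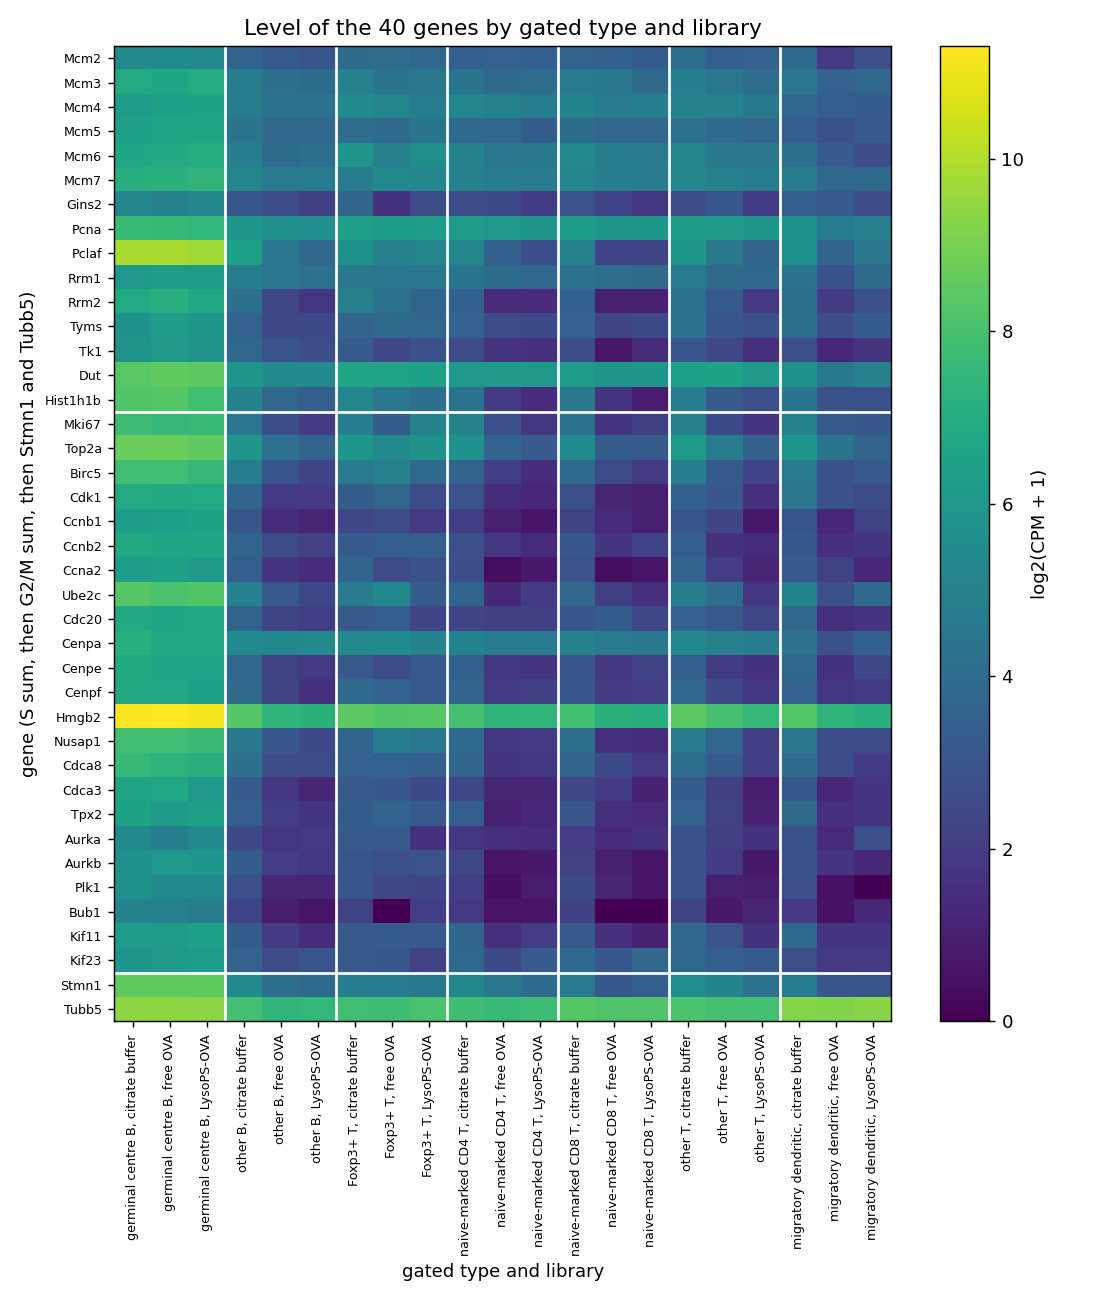
Level of each of the 40 genes as log2(CPM + 1), with genes in rows (S sum, then G2/M sum, then Stmn1 and Tubb5) and 7 gated types in columns, each split by library. The germinal centre B columns are bright and alike; in other B, other T, naive-marked CD4 T and migratory dendritic barcodes the citrate column is the brightest of its type for all 23 G2/M genes, and in Foxp3+ T for 10 of them.

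Pclaf, the PCNA-associated factor of replication forks, had one of the steep contrasts between types. It stood at 927, 928 and 826 CPM in germinal centre B, at 84.5, 20.9 and 12.5 CPM in other B and at 31.5, 3.88 and 4.17 CPM in naive-marked CD8 T. Its germinal centre level was 10.98, 44.3 and 66.2 times that of other B. The libraries thus lay close in the high type and apart in the low one. Top2a, the topoisomerase that untangles sister chromosomes, stood at 425, 442 and 371 CPM in germinal centre B and at 58.4, 18.0 and 11.3 CPM in other B. Mki67, which encodes the Ki-67 protein of mitotic chromosomes, was at 217, 183 and 198 CPM and 20.9, 5.53 and 2.86 CPM. For all 3 genes citrate was highest and LysoPS-OVA lowest in other B.

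A few members were abundant in resting types too. Tubb5, a widely expressed beta tubulin, was at 672, 699.9 and 656 CPM in germinal centre B and at 322, 289 and 296 CPM in naive-marked CD8 T, the smallest contrast among the members with over 3 UMIs in the latter. In migratory dendritic barcodes it reached 595, 568 and 622 CPM. Dut, which keeps uracil out of DNA, and Pcna together made up 20.1%, 20.3% and 20.6% of the S sum in germinal centre B but 35.7%, 42.8% and 46.4% in naive-marked CD8 T. Hmgb2, a chromatin protein, gave 45.1%, 47.7% and 45.7% of the G2/M sum in germinal centre B and 49.6%, 63.2% and 62.8% in naive-marked CD8 T. Dut, Pcna and Hmgb2 thus gave more of the sums in naive-marked CD8 T than in germinal centre B, though for Hmgb2 the gap in citrate was small. Hmgb2, Tubb5 and Hist1h1b have close relatives in the genome, so their counts are uncertain where reads match several copies. Replication-dependent histone transcripts such as that of Hist1h1b also mostly lack the poly(A) tail on which this 3′ chemistry primes.

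To compare shares of barcodes across depths, each barcode was thinned at random to 1000 UMIs, and shallower ones (1244, 5566 and 1479) were left out. Barcodes that then held UMIs of 4 or more different members were counted. They were 8.81% (8.43 to 9.21; 1818 of 20627) for citrate, 5.10% (4.77 to 5.45; 836 of 16383) for free OVA and 3.16% (2.88 to 3.46; 460 of 14546) for LysoPS-OVA. The share in LysoPS-OVA was 0.359 (0.325 to 0.397) times that in citrate, the share in free OVA 0.579 (0.535 to 0.627) times, and LysoPS-OVA stood at 0.620 (0.554 to 0.693) times free OVA. Without thinning the shares were 27.5%, 15.1% and 21.3%, and LysoPS-OVA, the deepest library per barcode, was then above free OVA at 1.41 times. Over all kept barcodes 33 of the 40 genes were lower past 1.5-fold in LysoPS-OVA than in citrate and none higher, beside 3.86% and 1.62% of all genes. In free OVA 25 were lower than in citrate and none higher (4.57% and 2.12% of all genes), and between LysoPS-OVA and free OVA 10 were lower and none higher (3.06% and 1.78%).

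Germinal centre B led the types in each library, with 63.4% (58.7 to 67.9; 282 of 445), 55.5% (50.01 to 60.9; 187 of 337) and 53.5% (46.6 to 60.3; 115 of 215) of barcodes holding 4 or more members. Plasma held 47.1%, 41.5% and 45.0%, with intervals that overlap these. Among small types, type 1 dendritic barcodes held 15.1%, 7.91% and 6.52% and macrophages 16.1%, 7.32% and 10.0%. CD8 T without naive markers held 19.8% (21 of 106), 4.55% (3 of 66) and 4.08% (2 of 49). Ungated barcodes with 4 or more members numbered 589, 345 and 172, beside 3517, 3888 and 1253 with fewer. Their share was thus highest in citrate but lowest in free OVA, unlike the order over all kept barcodes. CD4 T without naive markers held only 11, 7 and 3 barcodes with 4 or more members, so this type is not ranked here. Other B barcodes, the bulk of the B cells, held 6.56% (5.99 to 7.17; 453 of 6907), 2.34% (1.97 to 2.75; 139 of 5948) and 1.16% (0.911 to 1.46; 72 of 6193). Foxp3+ T barcodes, which mark regulatory T cells, held 4.83% (14 of 290), 3.29% (8 of 243) and 2.56% (10 of 391), and these 3 intervals overlap. Gamma delta T barcodes held 6.94% (5 of 72), 4.76% (2 of 42) and 0 of 77, the last of which allows a share of up to 3.90%. Natural killer, type 2 dendritic, plasmacytoid dendritic and stromal gates held at most 35 barcodes in any library, so their shares are not compared.

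**Figure D2:**
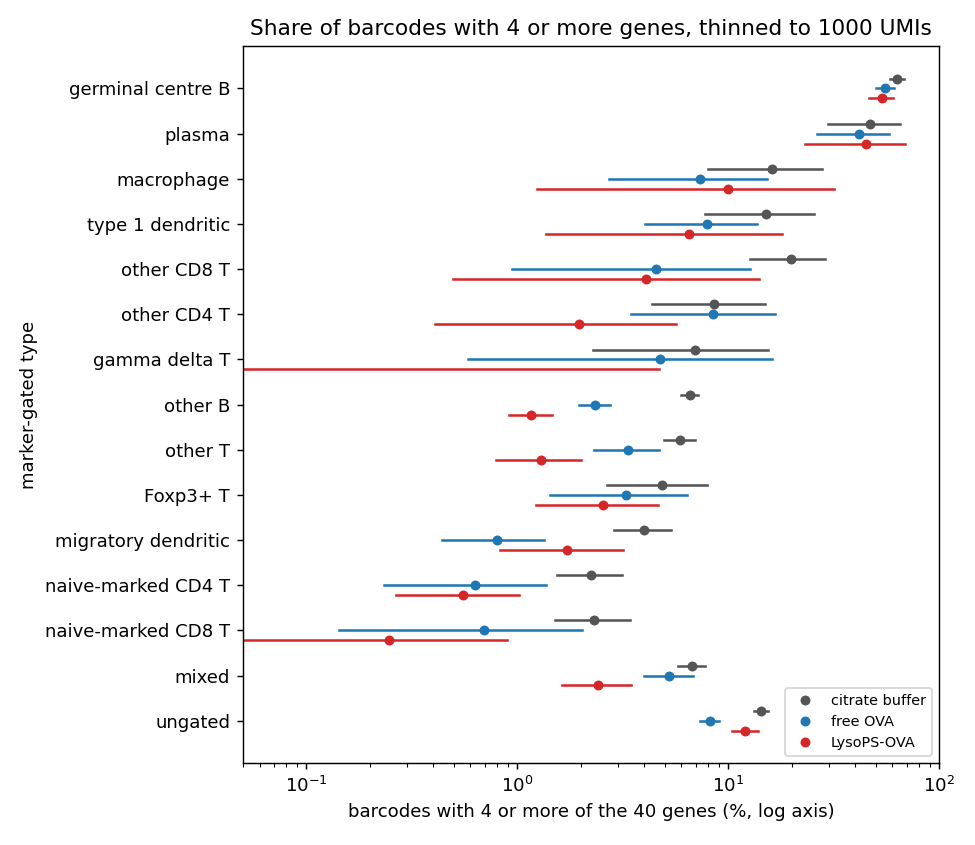
Share of barcodes with 4 or more of the 40 genes after thinning to 1000 UMIs (percent, log axis) for 15 gated types in rows and 3 libraries in colour; points are shares, lines are 95% Clopper-Pearson intervals, and a line without a point is a count of 0. Germinal centre B and plasma lie between 41.5% and 63.4% in all 3 libraries, and in other B, other T and both naive-marked T types the citrate point lies to the right of the others.

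Resting types show how large such a share is without expected division. Naive-marked CD8 T barcodes held 2.32% (1.51 to 3.40; 25 of 1078), 0.694% (0.143 to 2.02; 3 of 432) and 0.248% (0.0300 to 0.892; 2 of 807), at median depths of 4647.5, 7028 and 5854 UMIs, against 2875, 4152 and 4249 in other B. Naive-marked CD4 T barcodes held 2.24%, 0.634% and 0.553%, and migratory dendritic cells, which arrive from the gut and are not known to divide, held 3.97%, 0.803% and 1.73%. This reference was itself highest in citrate. Other B lay above naive-marked CD8 T in each library, but the intervals overlap in free OVA and nearly touch in LysoPS-OVA, where other B was also below the migratory dendritic share.

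Germinal centre B barcodes were 5.93%, 4.94% and 3.40% of B barcodes (448, 346 and 222 of 7551, 7007 and 6535). The intervals were 5.41 to 6.49, 4.44 to 5.47 and 2.97 to 3.87, so LysoPS-OVA was below both others. Within germinal centre B the share with 4 or more members was 0.844 (0.731 to 0.974) times that of citrate in LysoPS-OVA and 0.876 (0.777 to 0.986) times in free OVA. Of all barcodes with 4 or more members, germinal centre B gave 15.5%, 22.4% and 25.0%, other B 24.9%, 16.6% and 15.7% and T 13.1%, 7.42% and 10.2%. Ungated barcodes gave 32.4%, 41.3% and 37.4%, the largest of these shares in each library. Of those ungated barcodes 57.7%, 47.0% and 52.3% had a UMI of a B cell marker, 38.7%, 18.3% and 25.6% of a T cell marker and 37.2%, 42.0% and 51.7% of a germinal centre marker. Their median depth was 1785, 1734 and 1893 UMIs. Of ungated barcodes under 4 members, 51.3%, 41.9% and 40.9% had a UMI of a B cell marker. For a T cell marker the shares were 46.3%, 26.3% and 31.7%. The B marker shares were thus higher in ungated barcodes with 4 or more members, and the T marker shares lower.

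Within germinal centre B no member differed past 1.5-fold between either ovalbumin library and citrate. Calls compare CPM + 1 among genes with 30 or more UMIs over the 3 libraries. For LysoPS-OVA against citrate 0 of 40 were lower and 0 higher, where 7.97% and 6.42% of all 9083 genes tested were. For free OVA against citrate the counts were again 0 and 0, beside 9.1% and 4.14%. The S sum ratio to citrate was 0.970 (0.930 to 1.01) for LysoPS-OVA and 1.05 (1.02 to 1.10) for free OVA, and the G2/M ratio 0.904 (0.878 to 0.931) and 0.978 (0.952 to 1.005). Between LysoPS-OVA and free OVA 1 of 40 was lower (5.12% of all genes) and none higher (9.23%). It was Cdca3, a trigger of mitotic entry, at 96.1, 108 and 64.4 CPM, a ratio of 0.595 (0.460 to 0.766).

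Single members in germinal centre B had ratios to citrate from 0.670 (Cdca3) to 1.26 (Mcm4) in LysoPS-OVA and from 0.700 (Aurka) to 1.38 (Tyms) in free OVA. The 6 MCM helicase subunits ranged from 1.01 (Mcm2) to 1.26 (Mcm4) and from 0.816 (Mcm3) to 1.20 (Mcm4). Tyms, which makes thymidylate, was at 54.0, 74.4 and 63.0 CPM, highest in free OVA. Rrm2, the cycle-regulated subunit of ribonucleotide reductase, was at 119.9, 145 and 106 CPM, again highest in free OVA. Birc5, or survivin, of the chromosomal passenger complex was at 228, 226 and 182 CPM and its partner Cdca8, or borealin, at 191, 159 and 144 CPM. Aurkb, the kinase of that complex, was at 54.9, 64.5 and 60.9 CPM, so its 3 genes did not share an order of libraries. Ccnb1 (cyclin B1) was at 76.9, 82.6 and 93.1 CPM and Ccnb2 (cyclin B2) at 117, 104 and 101 CPM, in opposite orders. For each of Aurkb, Ccnb1 and Ccnb2 the intervals of the libraries overlap, so these orders may lie within counting error.

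Many germinal centre barcodes could not be placed in a zone, and few were dark-marked. Barcodes with more UMIs of the dark zone gene Cxcr4 than of the light zone genes Cd83 and Cd86 numbered 18, 30 and 15, and those with fewer 183, 126 and 105. The G2/M sum stood at 4042, 7687 and 7854 CPM in dark-marked and at 4092, 3348 and 3575 CPM in light-marked barcodes. The S sum stood at 1717, 2676 and 2467 CPM and 1961, 2209 and 2154 CPM. Dark-marked barcodes held more G2/M UMIs in both ovalbumin libraries and not in citrate, over at most 30 barcodes. The other 247, 190 and 102 barcodes were tied and had the highest shares with 4 or more members in citrate and free OVA, 77.6%, 66.5% and 63.2% against 44.4%, 55.2% and 66.7% in dark-marked barcodes.

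In other B barcodes most of the 40 genes were lower in both ovalbumin libraries than in citrate. The S sum was 461, 259.9 and 240.5 CPM and the G2/M sum 679, 299 and 261 CPM. The S sum ratio to citrate was 0.522 (0.506 to 0.538) in LysoPS-OVA and 0.564 (0.548 to 0.581) in free OVA, and the G2/M ratio 0.385 (0.375 to 0.396) and 0.440 (0.429 to 0.452). For LysoPS-OVA 31 of 40 genes were lower past 1.5-fold, where 7.66% of the 14596 genes tested were, and none higher (2.9%). For free OVA 30 were lower (6.84%), 28 of them also among those lower in LysoPS-OVA, and none higher (2.38%). These comparisons share the citrate library. LysoPS-OVA against free OVA had 9 lower (1.77%) and none higher (0.918%): Pclaf, Rrm2, Mki67, Top2a, Birc5, Ube2c, Cenpf, Cdca3 and Kif11.

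The mitosis genes differed more than the replication genes in other B. Of the G2/M genes 21 of 23 were lower in LysoPS-OVA than in citrate, with a median log2 ratio of -1.79, and of the S genes 9 of 15, with a median of -0.70, beside -0.05 for all genes tested. For free OVA the counts were 22 and 7, with medians of -1.47 and -0.58. Mki67 had the lowest ratio of LysoPS-OVA to citrate, 0.137 (0.107 to 0.173), and Cenpa the highest, 0.958 (0.879 to 1.04). Cenpf, a kinetochore protein, was at 14.2, 4.03 and 2.02 CPM and Cenpe, a kinetochore motor, at 12.4, 3.64 and 2.65 CPM. Cenpa, the centromeric histone, was at 42.1, 37.7 and 40.3 CPM, unlike the other centromere genes. Ube2c, which passes ubiquitin to targets of the anaphase-promoting complex, was at 30.1, 8.02 and 4.46 CPM, and Cdc20, an activator of that complex, at 11.1, 4.10 and 3.35 CPM. Bub1, a spindle checkpoint kinase, was scarce, at 3.90, 0.806 and 0.558 CPM. Plk1, the Polo kinase, was at 5.87, 1.30 and 1.29 CPM, nearly equal in the ovalbumin libraries. Kif11, a spindle motor, was at 9.17, 3.08 and 1.71 CPM, while Kif23, a motor of cell cleavage, was at 10.6, 5.18 and 6.55 CPM and not lowest in LysoPS-OVA.

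Replication genes in other B had a range of ratios to citrate, with no gap at the 1.5-fold cut. Rrm2 was at 17.2, 4.34 and 2.51 CPM and Hist1h1b, a linker histone of S phase, at 32.8, 12.3 and 9.45 CPM. Rrm1, the partner subunit of Rrm2, was at 27.1, 20.8 and 17.9 CPM, short of 1.5-fold in each comparison with citrate once 1 CPM was added. Pcna was at 61.3, 47.8 and 46.2 CPM, Dut at 60.6, 42.8 and 41.7 CPM, Mcm4 at 25.6, 18.8 and 18.7 CPM and Mcm7 at 35.2, 23.3 and 25.9 CPM. With Cenpa and Tubb5 (239.7, 169 and 178 CPM), these were the 7 members called in neither comparison with citrate, and all 7 had ratios below 1. The promoter windows of Cenpa and Kif23 hold TTTGAA as those of Top2a and Cdc20 do. In all B barcodes together, germinal centre included, 30 members were lower in LysoPS-OVA than in citrate (7.26% of all genes) and 30 in free OVA (6.24%). Between LysoPS-OVA and free OVA 6 were lower (1.64%). None was higher in any of the 3, beside 2.93%, 2.29% and 0.909% of all genes.

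**Figure D3:**
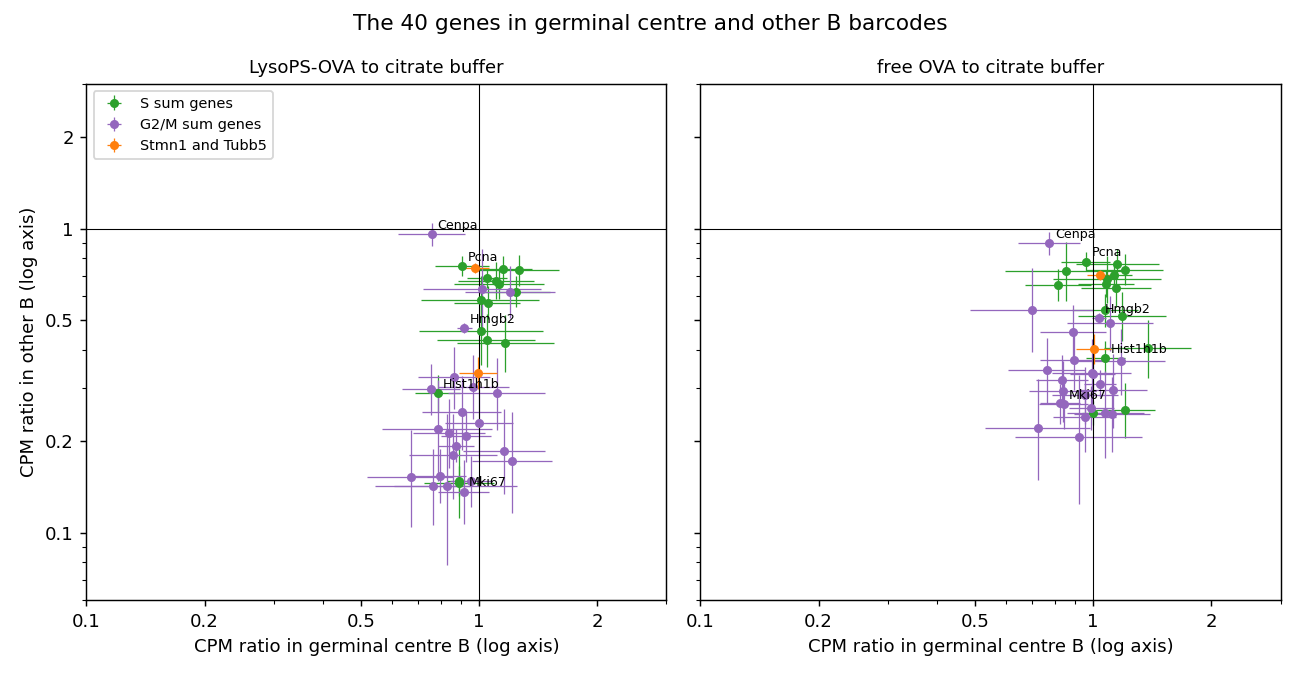
CPM ratio to citrate buffer for each of the 40 genes in germinal centre B (horizontal) and in other B (vertical), on log axes, for LysoPS-OVA (left) and free OVA (right); lines are 95% counting intervals and colours mark the sums. Horizontally the genes lie around 1, from 0.670 to 1.26 and from 0.700 to 1.38; vertically all lie below 1, down to 0.137 and 0.207.

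Barcodes with 4 or more members held 40.2%, 19.4% and 10.8% of the S sum and 50.2%, 33.3% and 17.9% of the G2/M sum of other B, shares that partly follow from how such barcodes are defined. For Pclaf the share was 74.2%, 75.1% and 75.3%, and for Pcna 21.2%, 6.81% and 3.72%. Those barcodes held S sums of 3325, 2986 and 3218 CPM and G2/M sums of 6108, 5840.2 and 5759 CPM, levels that the same selection largely sets. Other B barcodes under 4 members held S sums of 291, 211 and 215 CPM and G2/M sums of 356, 199 and 215 CPM. Citrate was highest there too, and Pclaf stood at 23.0, 5.16 and 2.96 CPM. With all barcodes of 4 or more members left out, 23 and 25 of the 40 genes were lower past 1.5-fold in B barcodes of LysoPS-OVA and free OVA than of citrate (7.05% and 6.19% of all genes), and 1 was lower in LysoPS-OVA than in free OVA (1.62%).

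**Figure D4:**
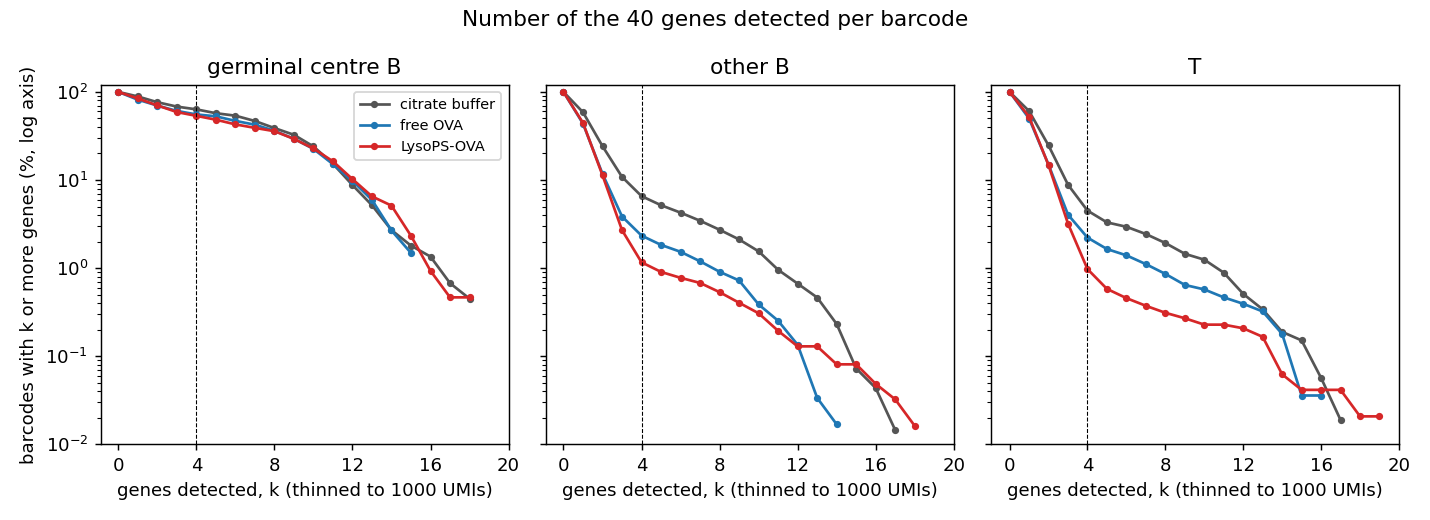
Percent of barcodes (log axis) with k or more of the 40 genes detected after thinning to 1000 UMIs, against k, for germinal centre B, other B and T barcodes and 3 libraries; the dashed line marks 4. At 4 genes the curves stand at 63.4%, 55.5% and 53.5% in germinal centre B, at 6.56%, 2.34% and 1.16% in other B and at 4.49%, 2.22% and 0.974% in T.

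T barcodes had the same order of libraries. The S sum was 464, 329.6 and 287 CPM and the G2/M sum 641, 349 and 279 CPM. Barcodes with 4 or more members were 4.49% (3.95 to 5.08; 238 of 5301), 2.22% (1.70 to 2.83; 62 of 2797) and 0.974% (0.716 to 1.29; 47 of 4827) of T barcodes. Of the 40 genes 29 were lower in LysoPS-OVA than in citrate (6.09% of all 14085 genes tested), 28 in free OVA than in citrate (5.59%) and 13 in LysoPS-OVA than in free OVA (1.78%). None was higher, beside 1.97%, 2.14% and 1.08% of all genes. The median log2 ratio to citrate of all genes lay at -0.11 and -0.10 in LysoPS-OVA and free OVA, beside -1.27 and -0.97 for the 40 genes. Pclaf was at 52.4, 16.3 and 9.82 CPM and Hist1h1b at 26.7, 8.71 and 4.08 CPM. Ccna2 (cyclin A2), the lowest ratio of LysoPS-OVA to citrate here at 0.145 (0.0979 to 0.210), was at 9.02, 1.74 and 1.31 CPM. Stmn1, a microtubule destabiliser, was at 38.5, 24.6 and 15.8 CPM with no overlap of the 3 intervals, while Tubb5 was at 272, 239 and 249.3 CPM.

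Foxp3+ T barcodes had smaller differences, though the difference from other T cells was not tested. Their S sum was 549, 429 and 433 CPM and their G2/M sum 674, 614 and 581 CPM. Of the 35 members that passed the filter 12 were lower and 1 higher in LysoPS-OVA than in citrate (7.8% and 6.9% of all genes). In free OVA 9 were lower and 2 higher (9.88% and 7.84%), and between LysoPS-OVA and free OVA 5 were lower and 3 higher (5.52% and 6.06%). Mki67 was at 28.4, 8.74 and 32.1 CPM and Top2a at 62.4, 41.5 and 55.1 CPM, both lowest in free OVA. Nusap1, a spindle protein, was at 11.3, 26.9 and 20.7 CPM and was called higher in both ovalbumin libraries. Higher calls against citrate were no more frequent among the members than among all genes, so this call does not stand out.

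Taken as pools, CD4 and CD8 T barcodes outside the Foxp3+ gate followed all T barcodes. In CD4 T without naive markers the S sum of free OVA was 0.942 (0.795 to 1.11) times that of citrate, an interval that holds 1. Its G2/M sum was 0.766 (0.673 to 0.871) times that of citrate. For LysoPS-OVA these ratios were 0.412 (0.344 to 0.492) and 0.231 (0.197 to 0.270). In naive-marked CD4 T the G2/M sum was 514, 243 and 243 CPM. CD4 T without Foxp3 had 27 of 40 members lower in LysoPS-OVA than in citrate and none higher (7.47% and 2.94% of all genes), and 26 lower in free OVA and none higher (7% and 3.29%). Between LysoPS-OVA and free OVA 9 were lower and 1 higher (3.07% and 2.35%). CD8 T had 29 of 39 tested members lower in LysoPS-OVA and none higher (7.71% and 2.93%), and 28 lower in free OVA and none higher (8.42% and 3.32%). Between LysoPS-OVA and free OVA 8 were lower and 2 higher (4.22% and 4.06%).

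Migratory dendritic barcodes also had lower levels in the ovalbumin libraries. Their S sum was 346, 139 and 179 CPM and their G2/M sum 670.0, 253 and 242 CPM. Of the 31 members that passed the filter 27 were lower and none higher in LysoPS-OVA than in citrate, but 15.9% of all genes were lower too (7.56% higher). In free OVA 27 were lower and none higher, beside 27% and 2.56%. Between LysoPS-OVA and free OVA 7 were higher and 5 lower (20.4% and 4.9%). Type 1 dendritic barcodes (73, 141 and 47) had S sums of 878, 549 and 664 CPM, and macrophages (88, 109 and 33) of 569.6, 428 and 565 CPM.

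Other measures were set beside these levels, and not all ran in the same order of libraries. The 7 germinal centre markers summed to 1431, 1677 and 1906 CPM in germinal centre B, to 53.4, 31.6 and 25.7 CPM in other B, to 28.3, 12.9 and 19.6 CPM in naive-marked CD8 T and to 47.4, 18.9 and 28.7 CPM in migratory dendritic barcodes. None was at 0 in other B, and 1 was at 0 in free OVA in each of the last types. A set of 10 B cell transcripts such as Cd74 and Igkc, chosen after the data were seen and none at 0, summed to 1540.1, 977 and 1056 CPM in naive-marked CD8 T. The UMIs of Pclaf for each UMI of Top2a were 2.18, 2.10 and 2.23 in germinal centre B, 1.45, 1.16 and 1.10 in other B and 0.730, 0.429 and 0.5 in naive-marked CD8 T, so the ratio of these genes differed between types. Malat1 was under 0.5% of UMIs in 78.1%, 89.7% and 82.6% of barcodes with 4 or more members, against 22.3%, 44.7% and 14.6% of those with fewer. Before doublet removal 20.6%, 6.49% and 8.37% of barcodes with 4 or more members were called doublets. The part of these measures in the lower levels was not tested.

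Cell cycle genes outside the 40 were counted from lists of related function. In other B 14 of 24 further replication genes and 18 of 24 further mitosis genes were lower in LysoPS-OVA than in citrate, with median log2 ratios of -0.71 and -0.89, and none was higher, beside 7.66% of all genes lower and 2.9% higher. In free OVA 12 and 13 were lower than in citrate (6.84% of all genes). Cks2, a CDK subunit, was at 38.8, 19.3 and 18.0 CPM and Cks1b at 23.4, 9.28 and 5.89 CPM. Slbp, which binds histone transcripts, was at 61.8, 62.1 and 62.6 CPM and Rfc2, of the PCNA clamp loader, at 70.6, 66.9 and 71.9 CPM, nearly level across libraries. Of 12 listed drivers of the cycle, mostly of entry into S phase, 5 were lower in LysoPS-OVA than in citrate. Ccnd2 (cyclin D2) was at 119.7, 61.9 and 75.3 CPM. Of 12 genes that restrain the cycle none was lower and 1 was higher, against the same shares of all genes. Btg1, an antiproliferative gene, was at 1236, 1354 and 1507 CPM, in the reverse order of the sums.

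The 40 genes followed their own mean unequally over 26 sums (11 gated types by library, each of 100 or more barcodes). These sums share libraries and differ in depth, so the correlations are a description. Cdca8, Hmgb2 and the spindle assembly factor Tpx2 followed the mean most closely, with Pearson r of 0.986, 0.981 and 0.981. Tubb5 (0.598), Mcm4 (0.703) and Kif23 (0.727) followed it least. Of the 6075 genes ranked outside the 40 the closest were Hmgn2 (0.968), Cks2 (0.968), Anp32b (0.960), Hells (0.957), Snrpd1 (0.949), Lig1 (0.945), Metap2 (0.939) and Cisd1 (0.936).

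Barcodes with 4 or more members were split by which sum gave more detected genes, as a rough phase. The split was not corrected for list size, and the G2/M sum holds more genes than the S sum. Its member Hmgb2 was detected in 87.3%, 90.2% and 89.8% of these barcodes. An excess of G2/M-led barcodes can thus follow from the lists, so the split cannot tell which phase was more common. G2/M genes led in 1156, 534 and 297 and S genes in 503, 247 and 137 barcodes, so S led in 27.7%, 29.5% and 29.8%. That share was alike in the 3 libraries although the number of such barcodes was not. In germinal centre B it was 20.9%, 21.9% and 28.7%. The S sum divided by the G2/M sum was 0.489, 0.527 and 0.524 in germinal centre B and 0.678, 0.870 and 0.920 in other B. Dut and Pcna gave 26.5%, 34.8% and 36.6% of the S sum in other B.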

How the data were processed

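The deposited values are raw UMI counts for each gene and barcode, which the authors made with Cell Ranger (7.2.0) and the mm10 build, according to the submitters' processing notes. The annotation and intron setting are not given in the sources used here. Barcodes needed 300 genes and no more than 10% mitochondrial UMIs, and Scrublet doublets (expected rate 0.8% per 1000 barcodes) were removed. Total counts were 96616683, 81559237 and 84089686 for citrate, free OVA and LysoPS-OVA. B, T and germinal centre gates needed 2 different markers, plasma 4 and myeloid types 3. Barcodes of several lineages were set aside as mixed. UMIs were summed by library and type and divided by the type's total; 3′ counts were not divided by length. Ratios were called past 1.5-fold with 1 CPM added. Intervals are Clopper-Pearson (shares), exact Poisson (CPM), conditional binomial (CPM ratios) and Katz (share ratios). All 40 members could be named, the 4 genes of each other list most abundant in germinal centre B, and the 8 genes most like the members at a mean of 20 CPM or more. The epithelial and B transcript lists were chosen after the data were seen, and the members and other lists with earlier results of these data known. Calls and thinning were tested on simulated data. Scanpy 1.11.5, scipy 1.17.1, numpy 2.4.6, pandas 2.3.3 and matplotlib 3.10.9 ran under Python 3.11.15.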

Additional observations from a re-analysis of the deposited data

Results flagged for a closer look

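Among the 7 gated types with 100 or more barcodes in each library, the S sum of free OVA against citrate was above 1 in germinal centre B (1.05 (1.02 to 1.10)) and below 1 in the other 6, with counting intervals clear of 1. The ratio was 0.564 in other B, 0.782 in Foxp3+ T, 0.748 in naive-marked CD4 T, 0.666 in naive-marked CD8 T, 0.734 in other T and 0.402 in migratory dendritic barcodes. Among smaller types plasma was also above 1, at 1.13 (1.04 to 1.23), and other CD8 T (0.362 (0.292 to 0.447)), gamma delta T (0.571 (0.434 to 0.745)), natural killer (0.526 (0.332 to 0.805)) and type 1 dendritic barcodes (0.625 (0.528 to 0.740)) were below it. The 8 or fewer type 2 dendritic barcodes of a library gave 5.32 (2.38 to 14.8). The S sum of LysoPS-OVA against free OVA, in the same 7 types, was above 1 in migratory dendritic barcodes (1.29) and below 1 in germinal centre B (0.920), other B (0.925), naive-marked CD4 T (0.926) and other T (0.783), while the intervals of Foxp3+ T and naive-marked CD8 T held 1. Among smaller types natural killer barcodes were above 1, at 1.99 (1.26 to 3.22), and other CD4 T (0.437 (0.362 to 0.528)) and gamma delta T (0.648 (0.478 to 0.882)) below it. Natural killer gates held at most 35 barcodes in any library, of which 2, 0 and 1 held 4 or more members. The natural killer ratios can thus turn on a single barcode, which the counting intervals do not cover. With 1 library for each group, these differences between types were not tested.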

How the results depend on the processing

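The ratios of the share of barcodes with 4 or more members kept their direction under every setting run except 1. Without thinning LysoPS-OVA to free OVA reversed to 1.41, and LysoPS-OVA to citrate moved to 0.775. Counting 3 or more members gave 0.522 for free OVA to citrate and 0.718 for LysoPS-OVA to free OVA. Requiring 10% ribosomal protein UMIs gave 0.317 and 0.508 against citrate for LysoPS-OVA and free OVA, and allowing 5% mitochondrial UMIs gave 0.527 for free OVA. Of settings added after the data were seen, gated barcodes alone gave 0.287, 0.519 and 0.553 for LysoPS-OVA to citrate, free OVA to citrate and LysoPS-OVA to free OVA, and Malat1 at 0.5% or more gave 0.249 and 0.373 against citrate. Counting UMIs in place of genes, or leaving out barcodes kept in 2 libraries, moved none of the 3 ratios out of its interval.

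Of members lower past 1.5-fold, adding 10 CPM left 15 in B for free OVA to citrate, 0 for LysoPS-OVA to free OVA, and 18, 12 and 1 in T for LysoPS-OVA and free OVA to citrate and LysoPS-OVA to free OVA; a larger added value itself shrinks the ratios of scarce genes. Without barcodes of 4 or more members 1 was left in B and 1 in T for LysoPS-OVA to free OVA. No member was called higher in B or T under any setting run for these counts. For the other moved values the cause was not tested. No paired analysis was possible because each group has 1 library. Depth limits the small types, where a handful of barcodes decides a share.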
